A study of Homo sapiens with 22 samples.

Results

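Retained-intron transcripts are RNA isoforms that GENCODE, the human reference gene annotation, classes as holding intron sequence relative to the coding isoforms of the same gene. They were selected by their annotated type and by a mean of at least 1 CPM (read counts scaled to the total of the library) over the libraries of 0 to 10 h, and no change over time or between groups entered the choice. Of 227264 transcripts in the count tables, 28928 were of this type and 13193 passed, from 4860 genes. Across all types 79513 transcripts passed. The cutoff fell between PHAF1, LRP6 and HARS2 on the inside, just above 1 CPM each, and DDX10, CNOT9 and SPCS2 just outside it. The study measured RNA decay by BRIC-Seq in HEK293T, a human embryonic kidney line that expressed either a control shRNA (shControl) or an shRNA against ZNF598 (shZNF598), a ubiquitin ligase that acts on collided ribosomes. All cells were fed 150 µM bromouridine for 24 h, then moved to medium without it for 0, 2, 4, 6 or 10 h of chase, and RNA that carried the label was pulled down with an antibody and sequenced. Each shRNA and time had 2 libraries, 20 in all, and 2 further libraries of a longer chase, 1 for each shRNA, were not used here. Both groups are stable shRNA lines, and whether the 2 libraries of a group came from separate cultures is not given in the sources used here, so p-values measure the spread between these libraries, which may be technical.

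Introns are cut out of nuclear RNA by the spliceosome, which reads short sequences at their ends. An intron that is kept usually holds the RNA in the nucleus or exposes it to nonsense-mediated decay, and some genes for splicing factors use such introns to adjust their own output. Introns that stay in otherwise finished nuclear RNA, to be spliced later, are called detained introns. In a chase experiment, a precursor that is still being spliced leaves the labelled pool as its product enters it, whereas an intron-holding RNA that is a stable end product stays.

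The libraries held between 52352359 and 96963584 counts. The replicate libraries of shControl at 0 h stood apart, with a chi-square per degree of freedom of 28.5 between them and a Pearson correlation of log2 CPM of 0.977, against at most 17.9 and at least 0.990 in the other 9 groups. Early counts by class, by bin of shared bases and by gene list, and early changes of named transcripts, are therefore also given without each of them where the count moved by over 1.5 times or a call changed. Of the markers chosen for the cell line, VIM, CDH2, KRT8, KRT18 and ENO2 were present at means of 5.29 to 130 CPM, whereas the kidney factors PAX2 and LHX1 were at 0.0415 and 0.163 CPM. The markers of other cells PTPRC, CD3E, HBB, ALB and TNNT2 were at a mean of at most 0.00624 CPM, but COL1A1, of connective tissue cells, was at 0.629 to 1.36 CPM over the libraries. NEFM, a neuronal gene chosen for the cell line, was at 0.642 to 2.29 CPM. The CPM values of single libraries and their means are scaled with TMM factors, which set the bulk of the transcripts equal between libraries and are not plain shares of a library. These factors went from between 1.12 and 1.17 at 0 h to between 0.718 and 0.751 at 10 h. A rise or fall in these CPM is thus relative to the bulk of the transcripts, and a small rise up to 10 h is no rise in the share of the library.

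Most of these transcripts cannot be read apart from the coding isoforms of their gene. A read in an exon that 2 isoforms have in common was counted for both, and each retained-intron transcript was therefore set beside the protein_coding transcript of its gene with the highest mean CPM, its coding partner. A partner was found for 12974 of the 13193 transcripts. The share of a transcript's exonic bases that also lie in coding exons of its gene gave 3 classes. At most 25% was shared in 534 transcripts of 456 genes. These are called intron-led because most of their exonic bases lie outside coding exons of the gene. The name describes bases, and the part of their reads that fell in shared bases was not measured. Between 25% and 75% was shared in 7167 transcripts, and more than 75% in 4681. The other 811 had no such value, because they matched the annotation only without their version number or their gene has no coding model. At least 1 whole intron of a coding isoform lay inside an exon of 4578 transcripts, and more than 1 in 1851, whereas 7973 held none whole. In 1492 pairs, 1 transcript contained every exonic base of a shorter one but retained at least 1 of its introns, and in 160 of them (10.7%) it nevertheless received fewer reads in total. The lowest such share was 71.0%. In 134 pairs with the same introns this happened in 0. Not every read of the shorter transcript was thus counted for the transcript that retained its introns, as for H2AZ1 ENST00000511348.1, with 120787 reads against 166598.

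Splice sites of retained introns are shown for CLK1, GSTZ1, CYBC1 and THAP7, whose transcripts fell early in level or against the partner. They are also shown for RAN, an intron-led case with a high count whose ratio was not called. The first line of each pair gives the start of the intron with 3 exonic bases before it and the 6 intronic bases in capitals. The second gives the last 20 bases of the intron and 3 exonic bases, with the closing AG in capitals. All are from hg38, read 5′ to 3′ on the strand of the gene.
CLK1 intron 3 start, chr2:200860216-200861237, minus strand: gggGTATGA
CLK1 intron 3 end: cgcccacttgacgtttccAGaag
CLK1 intron 4 start, chr2:200859747-200860124, minus strand: gatGTATAG
CLK1 intron 4 end: gatttatttctctcttttAGatg
GSTZ1 intron 2 start, chr14:77324922-77326837, plus strand: ttgGTAAGA
GSTZ1 intron 2 end: ctatgtgcggtctctcctAGctc
GSTZ1 intron 4 start, chr14:77327553-77327911, plus strand: tcaGTGAGT
GSTZ1 intron 4 end: cactgctcccctctggacAGctg
CYBC1 intron 3 start, chr17:82447622-82449169, minus strand: ttgGTAAGG
CYBC1 intron 3 end: cagtcactttctcttcatAGgaa
RAN intron 4 start, chr12:130873129-130874545, plus strand: aagGTAGGC
RAN intron 4 end: tcccacaaatgtttcttcAGccc
THAP7 intron 2 start, chr22:21000788-21001255, minus strand: cagGTGGGC
THAP7 intron 2 end: tgggttgcttttccccgcAGtgg

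The shRNA target has its own retained introns, and 2 short ones, both between coding exons of ZNF598, are shown whole with their first 6 and last 2 bases in capitals. They lie on the minus strand of chromosome 16. Intron 6 is held by ZNF598-203 and ZNF598-205, and intron 12 by ZNF598-206.
ZNF598 intron 6, chr16:2002424-2002520: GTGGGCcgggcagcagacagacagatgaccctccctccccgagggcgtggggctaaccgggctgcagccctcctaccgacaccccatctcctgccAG
ZNF598 intron 12, chr16:1998853-1998964: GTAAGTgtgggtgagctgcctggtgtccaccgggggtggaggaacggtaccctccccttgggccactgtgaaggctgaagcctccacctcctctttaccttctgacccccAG

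The most common letter at each of 9 positions across the exon end and the intron start, taken over all introns of the coding partners, gave the consensus cagGTAAGT, with the intron letters in capitals. The 2 CLK1 introns matched it at 5 and 4 letters, and the 2 GSTZ1 introns at 6 and 5. Over all coding partners, 3849 introns of 1780 coding transcripts were held whole by a retained-intron transcript, and 20100 introns of the same coding transcripts were not. The held introns were short and rich in G and C. Their median length was 250 nt against 919 nt, and 32.4% against 15.7% were shorter than 150 nt. Their median GC content was 55.1% against 47.7%. In 1407 of 1754 coding transcripts that had both kinds (80.2%) the held introns were the shorter ones, and in 57.0% they had the higher GC content. Canonical GT and AG ends were as common, at 98.9% and 99.0%. The mean number of matches to the consensus was 6.08 in held introns and 6.32 in the others, and at most 5 letters matched in 28.1% against 18.5%. These shares describe the annotation together with the CPM cutoff, and no test was made, since introns of 1 gene are not independent.

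Levels were compared per kilobase of transcript, because a longer transcript collects more reads. The retained-intron transcripts had a median mean of 3.39 CPM and reached 1823 CPM. Per kilobase, they stood at a median of 76.4% of their coding partner, and 3497 of 12974 (27.0%) stood above it. The median level fell from bin to bin with the share of bases that the coding exons lack, but not within the last bin. Transcripts with more than 90% of shared bases stood at a median of 103% of their partner, those between 50% and 75% at 72.7%, those between 25% and 50% at 46.2%, those between 10% and 25% at 25.4% and the 58 of at most 10% at 12.6%. The 10 of these that shared at most 5% went the other way, with a median of 134%. The intron-led class as a whole stood at a median of 24.1% of its partners. Reads in shared exons count for both transcripts, so these percentages are not the shares of RNA that held the intron.

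**Figure D1:**
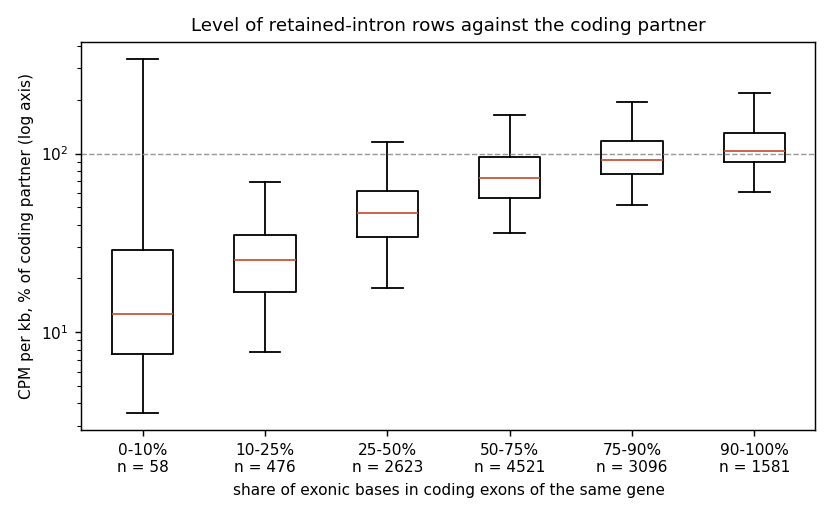
Level of retained-intron transcripts per kilobase, as a percentage of the coding partner on a log axis, by the share of their exonic bases that lie in coding exons. Boxes span the quartiles with the median as a line, whiskers reach the 5th and 95th percentiles, and the dashed line marks 100%. The medians fall from 103% for the most shared transcripts to 12.6% for the bin of at most 10%, which holds 10 transcripts of at most 5% with a median of 134%.

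Several intron-led transcripts nevertheless had high counts. These counts include reads in exons shared with coding isoforms, so they do not show that the intron-holding RNA was abundant. CALM2-205, of the gene for the calcium sensor calmodulin, stood at 96.3 CPM and its partner at 95.7 CPM, but it is long, and per kilobase it reached 27.0% of the partner. RPS24-217, of a protein of the small ribosomal subunit, stood at 81.2 CPM and 17.9% of its partner per kilobase, and RAN-209, of the GTPase that drives nuclear transport, at 47.4 CPM and 39.2%. ENO1-206, of the glycolytic enzyme enolase, stood at 45.7 CPM and 13.2%, and RPL37A-209, of a protein of the large subunit, at 46.5 CPM and 129%. NBEAL1-204 was the only one of these 6 far above its partner, at 19.7 against 0.667 CPM per kilobase. Its exons contain RPL12P16, a processed pseudogene on the same strand, and reads of that copy cannot be told apart from those of NBEAL1.

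The time course was examined first as a ratio to the coding partner. The log2 ratio of each transcript to its partner was computed within each library, so the scaling of libraries cancels in it. Between 0 and 2 h, the ratio fell in 282 of 12974 retained-intron transcripts (2.17%), from 225 genes, and rose in 19. Over all 62483 transcripts of any type with a partner, 0.703% were called lower and 0.314% higher. Retained-intron transcripts thus made up 64.2% of the 439 lower calls and 20.8% of the pairs tested. Of other protein_coding transcripts 0.248% were called lower, of nonsense-mediated decay transcripts 0.346%, and of coding-gene transcripts without a defined reading frame 0.538%. The bases that these types share with coding exons were not measured, and shared reads pull a ratio toward a constant. The 282 calls had a median change of -0.23 on the log2 scale, and all 282 fell in the replicates numbered 1 alone and in those numbered 2 alone. The calls were made from these same libraries, so that agreement gives no separate support. A whole coding intron lay inside 203 of them, and 178 overlapped no exon of another gene. Without the first shControl library of 0 h 160 were called lower and 10 higher, and without the second 263 and 23.

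The early fall of the ratio was larger the less a transcript shared with coding exons. Reads in shared exons count for both transcripts and pull the ratio toward a constant, so smaller changes are built in where more is shared. The bins thus do not show whether RNA holding an intron was lost differently between them. In transcripts of at most 10% shared bases the median change of the ratio was -0.20 and 17.2% of 58 were called lower. The median was -0.12 and 12.4% were called lower between 10% and 25%. It was -0.057 with 4.50% between 25% and 50%, and -0.023 with 1.46% between 50% and 75%. Above 75% at most 0.506% were called lower in either of the bins. Without the first shControl library of 0 h the shares from the least shared bin on were 13.8%, 7.35%, 2.52% and 0.841%, and without the second 20.7%, 11.8%, 4.23% and 1.22%, in the same order, and above 75% at most 0.696%. Over the 534 intron-led transcripts, 69 (12.9%) of 65 genes were called lower and 2 higher. Without either shControl library of 0 h, 43 and 68 intron-led transcripts were called lower, and 0 and 1 higher. The median log2 ratio of the intron-led class, set against the 0 h mean of the same shRNA, lay between -0.125 and -0.136 in the 4 libraries of 2 h, between -0.122 and -0.146 at 4 h, between -0.114 and -0.139 at 6 h and between -0.0485 and -0.0757 at 10 h. The medians of 2, 4 and 6 h lay in about the same range in both shRNAs, and those of 10 h were closer to 0.

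**Figure D2:**
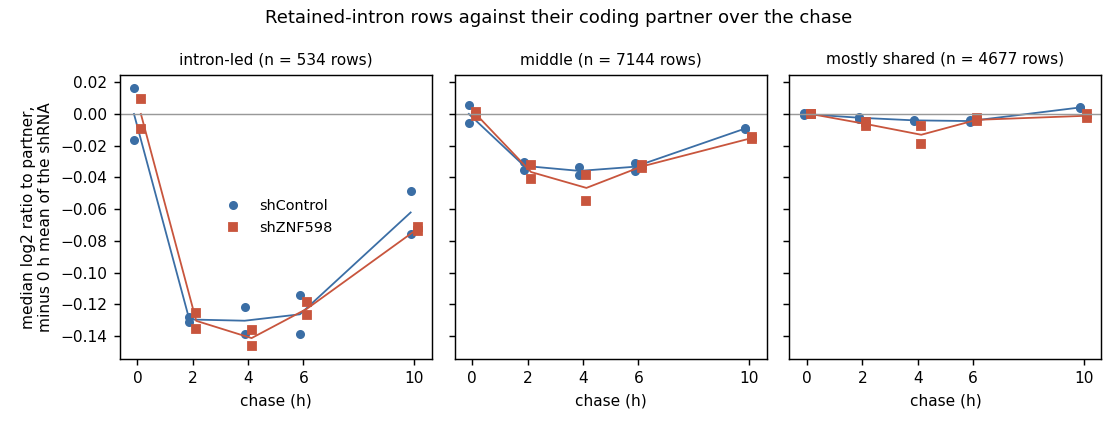
Median log2 ratio of retained-intron transcripts to their coding partner over the chase, minus the mean of the 0 h libraries of the same shRNA, for the intron-led, middle and mostly shared classes. Each point is 1 library, and lines join the means of the 2 libraries. The intron-led class lies between -0.125 and -0.136 at 2 h, while the mostly shared class stays near 0. Reads in shared exons count for both transcripts and pull the ratio of the more shared classes toward a constant.

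The largest early losses against the partner among transcripts of at least 5 CPM were those of 6 genes. RPS24-211, which shares 5.2% of its bases with coding exons, fell by 0.50 against its partner (SE 0.051, adjusted p = 0.000804). Its replicate levels in shControl were 6.78 and 6.77 CPM at 0 h, 5.23 and 5.04 at 2 h, 7.08 and 7.03 at 4 h, 11.4 and 9.31 at 6 h, and 24.3 and 22.9 at 10 h. In shZNF598 they were 9.24 and 9.43, 6.23 and 5.27, 6.74 and 8.94, 10.1 and 12.2, and 24.6 and 24.3 CPM. The 4 values at 2 h were all below the 4 values at 0 h, while the partner moved from 45.1 to 53.7 CPM at 0 h to 41.8 to 56.6 CPM at 2 h with overlap.

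GSTZ1-213, of an enzyme of tyrosine breakdown, holds 5 introns of coding isoforms and shares 23.2% of its bases. It fell by 0.48 against its partner (SE 0.031, adjusted p = 3.52e-05). In shControl it stood at 5.19 and 5.62 CPM at 0 h, 3.36 and 3.92 at 2 h, 4.89 and 4.66 at 4 h, 6.02 and 7.19 at 6 h, and 8.12 and 8.45 at 10 h. In shZNF598 the values were 6.07 and 5.92, 4.33 and 3.66, 4.83 and 5.01, 5.67 and 7.32, and 8.04 and 9.80 CPM. The groups of 0 and 2 h did not overlap. Its partner stood at 3.88 to 4.66 CPM at 0 h and 3.77 to 4.51 CPM at 2 h, so the transcript was above the partner in every library of 0 h and below it in every library of 2, 4 and 6 h.

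SNX5-218, of a sorting nexin of endosomes, fell by 0.49 against its partner (SE 0.055, adjusted p = 0.00162). Its 4 libraries held 9.64 to 12.5 CPM at 0 h and 7.70 to 9.57 CPM at 2 h, without overlap, and the shZNF598 libraries of 10 h, at 10.1 and 8.80 CPM, were still below those of 0 h, at 12.2 and 12.5 CPM. CYBC1-236, of a chaperone of the phagocyte oxidase, fell by 0.45 (SE 0.062, adjusted p = 0.00571), from 11.3 to 13.6 CPM at 0 h to 8.69 to 10.5 CPM at 2 h. UQCC2-203, of an assembly factor of mitochondrial complex III, fell by 0.42 (SE 0.054, adjusted p = 0.00388) from 7.28 to 9.69 CPM to 4.39 to 5.29 CPM. RGPD5-209 fell by 0.39 (SE 0.039, adjusted p = 0.000749), but it belongs to a family of near-identical copies, and unique mapping could split its reads unevenly. All 6 genes were called without either shControl library of 0 h.

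RPS24-217, with its high count, showed a smaller but very regular loss of 0.13 against its partner (SE 0.0055, adjusted p = 1.91e-06). At 0 h it stood within 1 CPM of the partner in all libraries, for example at 49.6 against 49.5 CPM in the first shControl library. At 2 h it was lower than the partner in all 4, at 40.1 against 43.8, 38.2 against 41.8, 51.6 against 56.6 and 47.9 against 53.1 CPM. CALM2-205 fell by 0.026 (SE 0.0033, adjusted p = 0.00419), a called but very small change. RAN-209 changed by -0.072 (adjusted p = 0.243), and by -0.10 without the second shControl library of 0 h (adjusted p = 0.0167), and ENO1-206 by 0.025 (adjusted p = 0.962).

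Transcripts that gained early on their partner were fewer. TM7SF2-222, of a sterol reductase, rose by 0.18 (SE 0.033, adjusted p = 0.0230), and TPT1-206, of translationally controlled tumor protein, by 0.16 (SE 0.024, adjusted p = 0.0110). ATG4B-225, of an autophagy protease, rose by 0.11 and EIF4G2-230, of a translation initiation factor, by 0.096. SERPINB6-215 rose by 0.13 and RPL37A-201 by 0.066, but with the partner picked per kilobase instead both values turned, to -0.013 and -0.020. These 6 shared between 51.6% and 92.5% of their bases with coding exons. Without the first shControl library of 0 h the calls of TM7SF2-222, ATG4B-225 and EIF4G2-230 were lost, with adjusted p of 0.0754, 0.0932 and 0.111, and that of EIF4G2-230 also without the second, at 0.0723.

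Taken by itself rather than as a ratio, the level of 927 retained-intron transcripts (7.03%) fell between 0 and 2 h and that of 408 (3.09%) rose, against 9.00% lower and 3.82% higher among all 79513 transcripts. Both shares were thus below the background. Without the first shControl library of 0 h there were 1506 lower and 926 higher, and without the second 826 and 273. Among the 534 intron-led transcripts 107 fell and 4 rose, or 111 and 7 without the first. ADAMTS1-203 fell by 1.66 between 0 and 2 h (adjusted p = 7.18e-12), while its ratio to the partner changed by -0.0023. A large early fall was also that of CLK1-210, of a kinase of the SR splicing proteins, whose 2 held introns are shown above. Its log2 change was -1.15, with an SE of 0.096 and an adjusted p of 3.77e-09. In shControl it stood at 12.1 and 9.65 CPM at 0 h, 4.91 and 5.13 at 2 h, 3.35 and 2.94 at 4 h, 3.97 and 3.20 at 6 h, and 5.10 and 4.58 at 10 h. In shZNF598 it stood at 13.9 and 14.2, 6.45 and 5.83, 3.04 and 3.94, 4.22 and 4.28, and 4.84 and 4.89 CPM. Every later library lay below every 0 h library, with the lowest values at 4 h. Its coding partner fell almost as much, by 0.96, and the ratio between them fell by 0.19 (SE 0.039, adjusted p = 0.0430), a call that was lost without the first shControl library of 0 h (adjusted p = 0.149).

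NFIA-215, of a nuclear factor I transcription factor, is 44880 nt long and shares 1.9% of its bases with coding exons. It fell by 1.09 (SE 0.17, adjusted p = 4.51e-05), from 24.4, 11.5, 14.3 and 18.4 CPM at 0 h to between 7.73 and 8.27 CPM at 2 h, with its ratio to the partner at -0.51 (adjusted p = 0.204). SNHG3-202, of a snoRNA host gene without coding isoforms, fell by 0.88 from 12.3 to 15.3 CPM to 6.77 to 8.76 CPM, and its exons overlap SNORA73A and RCC1. UQCC2-203 fell by 0.86, ZNF3-214, of a zinc finger protein, by 0.81 and THAP7-206, of a THAP domain repressor, by 0.79. For ZNF3-214 and THAP7-206 the ratio to the partner changed by -0.0043 and 0.019, with adjusted p of 0.996 and 0.832. Reads in shared exons count for both isoforms of these genes, so the falls of the 2 were not measured apart. The largest early rises were those of HSP90AA1-207, of a heat shock chaperone, by 0.75 (SE 0.14, adjusted p = 0.000791), RPS16-203, MRFAP1-204, SSB-208, SNRNP200-204 and SLC30A9-202, between 0.52 and 0.70. HSP90AA1-207 held 22.8 to 39.3 CPM at 0 h and 42.1 to 86.2 CPM at 2 h, and its partner rose by 0.68.

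Between 2 and 10 h the ratio to the partner rose in 1966 transcripts (15.2%) and fell in 1232 (9.50%), against 14.8% and 8.70% over all types. These shares were near the background. In the intron-led class 134 of 534 (25.1%) rose and 51 (9.55%) fell. Over the whole chase, the slope of the log2 ratio was above 0 in 1846 transcripts (14.2%) and below 0 in 2056 (15.8%), with a median of -0.00031 per hour, against 16.5% and 12.3% over all types. In the intron-led class 68 slopes were above 0 and 119 (22.3%) below. Without the 4 libraries of 0 h this turned to 140 above and 46 below.

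**Figure D3:**
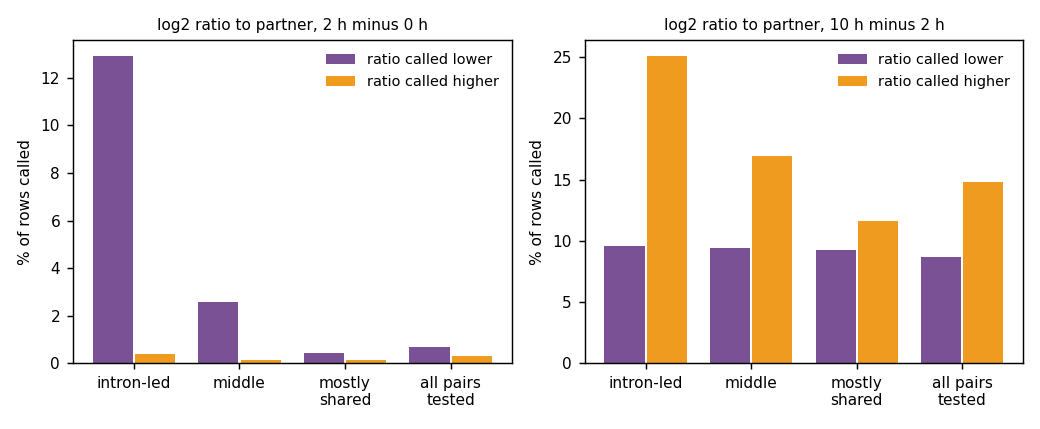
Share of retained-intron transcripts in each class whose log2 ratio to the coding partner was called lower or higher, between 0 and 2 h on the left and between 2 and 10 h on the right, beside all 62483 pairs of any type. Of the intron-led transcripts 12.9% are called lower early and 25.1% higher late. Reads in shared exons count for both transcripts and pull the ratio of the more shared classes toward a constant.

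The largest late gains on the partner, those of TAF1D and NBEAL1, came from transcripts whose exons overlap another RNA or a pseudogene, and the part of these in the change was not tested. TAF1D-210, of a subunit of the RNA polymerase I selectivity factor, contains SNORA40, a small nucleolar RNA, and shares 0 bases with coding exons. It rose by 2.23 against its partner between 2 and 10 h (SE 0.14, adjusted p = 1.14e-06). In shControl its levels were 4.55 and 4.64 CPM at 0 h, 2.91 and 2.75 at 2 h, 3.86 and 3.86 at 4 h, 6.12 and 4.95 at 6 h, and 11.4 and 13.3 at 10 h. In shZNF598 they were 6.27 and 4.83, 4.40 and 4.71, 6.05 and 5.67, 8.16 and 8.10, and 14.7 and 13.2 CPM. All 4 values of 10 h were above every earlier one, while the partner went from 2.85 to 3.73 CPM at 0 h to 1.43 to 2.58 CPM at 10 h. NBEAL1-204, with the pseudogene RPL12P16 inside, rose by 2.11 (SE 0.21, adjusted p = 2.96e-05), from 30.7 to 37.9 CPM at 2 h to 153 to 173 CPM at 10 h, and its partner stayed between 5.44 and 9.00 CPM in all 20 libraries. ACTN1-216, of the actin crosslinker alpha-actinin, overlaps the pseudogene HMGN1P3 and rose by 0.93 (SE 0.065, adjusted p = 2.52e-06).

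The other late gains named here overlapped no gene on the same strand. ZBTB44-208, of a zinc finger factor, rose by 1.06 against its partner (SE 0.085, adjusted p = 6.53e-06), from 4.85 to 4.96 CPM at 2 h to 7.60 to 9.53 CPM at 10 h. CYBC1-236 and WDR73-218 both rose by 0.84 (SE 0.062 and 0.061), but as they fell less than partners that fell further. CYBC1-236 went from 8.69 to 10.5 CPM at 2 h to 5.68 to 8.28 CPM at 10 h, and its partner from 6.08 to 7.77 to 2.41 to 3.03 CPM. CTCF-203, of the chromatin insulator protein, had a ratio slope of 0.085 per hour (SE 0.0041, adjusted p = 3.23e-09), its level going from 7.59 to 10.0 CPM at 0 h to 6.19 to 6.71 CPM at 10 h and that of its partner from 26.9 to 33.9 to 12.3 to 13.5 CPM.

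Late losses against the partner were largest for PYGL among transcripts of at least 5 CPM. PYGL-203, of liver glycogen phosphorylase, fell by 0.78 (SE 0.044, adjusted p = 7.78e-07). In shControl it stood at 10.8 and 11.1 CPM at 0 h and 14.6 and 14.8 at 10 h, and in shZNF598 at 6.34 and 7.09 and then 9.21 and 9.98, whereas the partner went from 20.2 to 25.2 to between 52.5 and 67.1 CPM. ALDH3A2-210, of fatty aldehyde dehydrogenase, fell by 0.64 against its partner and HSD17B4-206, of a peroxisomal enzyme of fatty acid oxidation, by 0.55. NUP54-208, of a nuclear pore protein, fell by 0.69 and RPL9-211 by 0.58. DCTN5-203, of a dynactin subunit, fell by 0.57, but with the partner picked per kilobase it rose by 0.22. ANAPC5-213, an intron-led transcript of a subunit of the anaphase-promoting complex, lost in both phases, by 0.28 early (adjusted p = 0.0280, and 0.0901 without the first shControl library of 0 h) and 0.36 late (adjusted p = 0.000444).

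**Figure D4:**
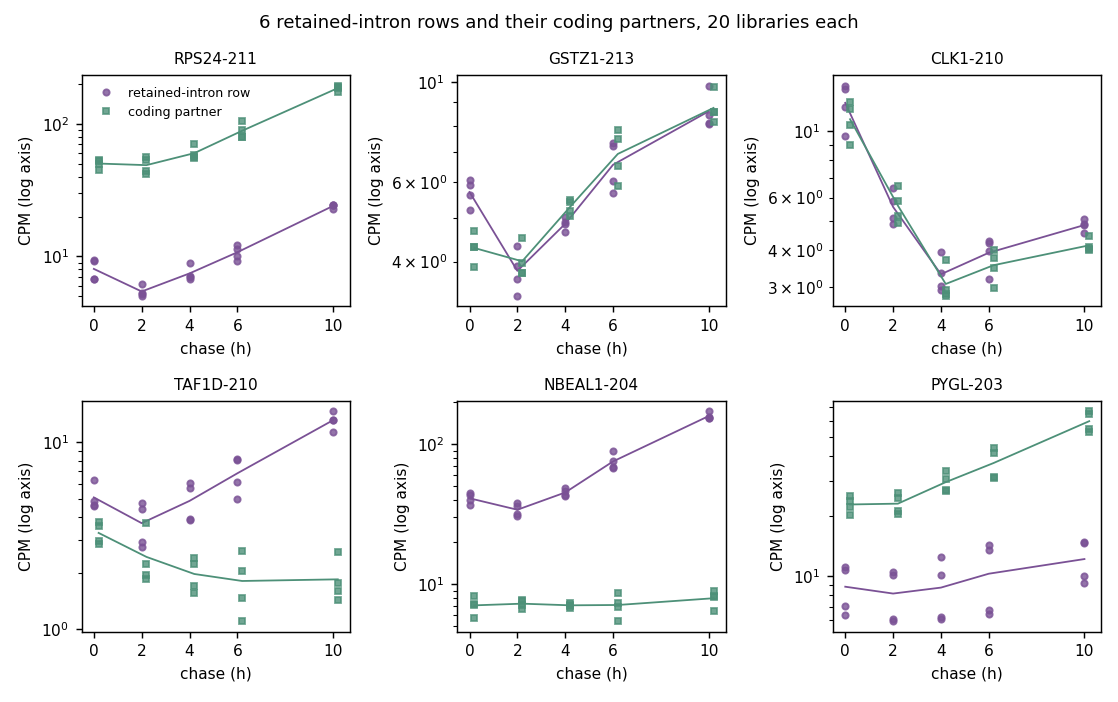
CPM on a log axis against hours of chase for 6 retained-intron transcripts (circles) and their coding partners (squares), with 1 point per library, 20 libraries each, and lines through the means. RPS24-211 and GSTZ1-213 drop from 0 to 2 h, while the values of their partners at these 2 times overlap. TAF1D-210 and NBEAL1-204 rise late, CLK1-210 falls with its partner, and PYGL-203 stays behind a rising partner.

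The decay slope of the level itself, in log2 units per hour and relative to the bulk of the library, was above 0 in 5846 retained-intron transcripts (44.3%) and below 0 in 4701 (35.6%). Among all transcripts tested 36.3% were called higher and 44.8% lower, and among protein_coding ones 32.7% and 49.8%. The median slope was 0.012 for retained-intron and -0.016 for all transcripts. It was 0.011 for the coding partners, with each partner counted once for every retained-intron transcript set beside it. With that weighting, the difference from all transcripts is not one between a retained-intron form and its own coding isoform. With 1 retained-intron transcript per gene the median turned to -0.012. Counted once each, the 4752 partners stood at 10 h at a median of -0.169 in shControl and -0.132 in shZNF598. These are log2 values against the mean of the 0 h groups, where all transcripts stood at -0.155 and -0.132. The balance depends on the scaling: with total counts in place of TMM factors the median of all transcripts moved to -0.083, and 3193 retained-intron transcripts were then called higher and 7487 lower. Across transcripts, the slope of a retained-intron transcript and that of its partner had a Pearson correlation of 0.978, a description only, since the 2 share reads and libraries. From 2 to 10 h, 5920 rose (44.9%) and 4699 fell (35.6%), against 36.4% and 45.4% over all types, and with total counts 3177 rose and 7892 fell.

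The highest slopes belonged to ACAT1-211, of mitochondrial thiolase, at 0.31 per hour (SE 0.012), SERF2-216 and RPSA-208 at 0.27, ACADVL-209, of a fatty acid oxidation enzyme, at 0.27, and GGH-205 and IGFBP2-205 at 0.26. ACAT1-211 went from 4.91 to 5.78 CPM at 0 h to 33.0 to 49.0 CPM at 10 h, and SERF2-216 from 5.66 to 6.39 to between 29.9 and 35.8 CPM. The lowest belonged to PRR3-203 at -0.31 per hour (SE 0.026), SPOP-221, of a ubiquitin ligase adaptor, at -0.29, G3BP2-211, of a stress granule protein, and GINS3-206, of a replication factor, both at -0.29, TRA2B-206, of an SR-like splicing factor, at -0.26, and ZFAND6-203 at -0.25. TRA2B-206 fell from 38.3 to 45.6 CPM at 0 h to 7.51 to 8.15 CPM at 10 h. The partners of these genes went the same way, at 0.29 per hour for ACAT1 and -0.26 for TRA2B.

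Gene lists picked for their link to splicing or to ribosomes differed in their slopes. Each is read against the 36.3% higher and 44.8% lower of all transcripts, and beside the median slope of its coding partners. In the medians of these lists a partner counts once for each retained-intron transcript set beside it. Both medians had the same sign in every list. Reads in shared exons count for both transcripts, so this does not show whether a slope is particular to retained-intron forms. Ratios to the partner are read against the 0.703% lower and 0.314% higher of all pairs early, and the 14.8% higher and 8.70% lower late. The SR proteins and their kinases, which recognise exons, had 58 retained-intron transcripts of 16 genes, of which 50 were called lower and 3 higher. Their median slope was -0.12, beside -0.13 for their coding partners. SRSF3-206 is an example, at -0.16 per hour (SE 0.016), with 21.0 to 28.7 CPM at 0 h and 7.53 to 10.5 CPM at 10 h. SRSF1-202 had -0.035, whereas SRSF9-204 rose at 0.10. Against their partners, 6 of the 58 (10.3%) fell early, or 3 without the first shControl library of 0 h, and late 25 (43.1%) rose and 1 (1.72%) fell. Genes known for detained or regulated introns, such as the export factor NXF1 and the RNA helicases DDX5 and DDX17, had 121 transcripts of 21 genes. Of these, 88 were lower and 11 higher, with a median of -0.086, beside -0.098 for their coding partners. Their ratio to the partner fell early in 16 (13.2%) and rose in 0, and late it rose in 48 (39.7%) and fell in 15 (12.4%). DDX5-209 had a slope of -0.10 (SE 0.021, adjusted p = 0.000143), DDX17-210 one of -0.033 (adjusted p = 0.169), and DDX39B-217 one of 0.099 (SE 0.0077). With DESeq2-type factors the counts of lower slopes, 50 and 88, were 49 and 79. With total counts they were 55 and 111, under a scaling that lowers the slopes of all transcripts together. The SR and detained-intron lists share CLK1, CLK4, SRSF5 and TRA2A. RBM5, RBM39 and HNRNPDL are in both the detained-intron list and the list of hnRNP and related RNA-binding proteins, so the counts of these lists are not independent.

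The hnRNP and related RNA-binding proteins, which coat nascent RNA, had 136 transcripts of 26 genes, 60 higher and 34 lower. Their median slope was 0.016, beside 0.028 for their coding partners. HNRNPC-205 was at 325 CPM with a slope of 0.14, HNRNPH1-239 at 41.0 CPM with 0.10, and HNRNPK-210 at 49.8 CPM with 0.036. Their ratio to the partner fell early in 14 (10.3%) and rose in 0, and late it rose in 35 (25.7%) and fell in 42 (30.9%). Core subunits of the spliceosome had 94 transcripts of 21 genes, 48 higher and 26 lower. The median was 0.035, beside 0.050 for their coding partners. SF3B2-208 rose at 0.085 and SF3B1-212 at 0.059, whereas SNRNP70-208 had a slope of 0.0053 (adjusted p = 0.559). Early against their partner 2 of the 94 (2.13%) fell, near the 2.17% of all retained-intron transcripts. Late, 23 (24.5%) rose and 10 (10.6%) fell.

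Cytosolic ribosomal proteins stood at the other end. Of 225 transcripts of 67 genes, 217 had a slope called above 0 and 3 below, and with total counts 205 were still called above. The median was 0.18 per hour, beside 0.19 for their coding partners. RPL4-205 was at 254 CPM with a slope of 0.17, RPS2-215 at 286 CPM with 0.22 and RPL5-207 at 79.8 CPM with 0.18. Between 0 and 2 h, 41 of 225 levels (18.2%) fell, against 9.00% of all transcripts, with a median change of -0.16 beside -0.13 for their coding partners. Without the first shControl library of 0 h 87 levels fell, and without the second 26. Against the partner 27 fell early, or 18 without the first, and 1 rose. Between 2 and 10 h the ratio of the ribosomal protein transcripts to the partner rose in 43 (19.1%) and fell in 53 (23.6%). Transcripts of the machinery for collided ribosomes and stalled nascent chains, to which ZNF598 belongs, numbered 52 from 14 genes, 32 higher and 5 lower. Their median slope was 0.061, beside 0.041 for their coding partners. RACK1-216, of the ribosomal scaffold on which ZNF598 acts, was at 93.6 CPM with a slope of 0.20, HBS1L-210, of a ribosome rescue factor, at 16.6 CPM with 0.11, and ABCE1-205, of the recycling ATPase, at 12.4 CPM with -0.0079 (adjusted p = 0.743). In this list 1 of 52 (1.92%) fell early against its partner, and late 10 (19.2%) rose and 5 (9.62%) fell.

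The study used the knockdown to ask whether mRNAs of C2H2 zinc finger proteins, on which ribosomes stall, are lost through ZNF598 in human cells too. Here the same 2 groups were compared over the retained-intron transcripts. The target was lowered as labelled. Its 4 retained-intron transcripts were lower in shZNF598 at 0 h by 2.91 to 3.14 on the log2 scale. ZNF598-206, which holds 7 introns of coding isoforms, intron 12 shown above among them, stood at 6.94 and 7.95 CPM in shControl and 0.788 and 1.10 CPM in shZNF598 at 0 h, a difference of -2.97 (adjusted p = 2.58e-10). Later it stood between 3.91 and 6.80 CPM in shControl and between 0.493 and 1.37 CPM in shZNF598, so the groups never overlapped. Its partner, with which it shares 74.9% of its bases, was lower by 3.08.

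Including ZNF598, 28 retained-intron transcripts of 19 genes were lower at 0 h and 5 of 3 genes higher, which is 0.212% and 0.0379% of 13193 against 0.335% and 0.0729% over all types. At an unadjusted p under 0.05 there were 1203. Without the first shControl library of 0 h 49 were lower and 9 higher, and without the second 87 and 139. Of the 30 called transcripts with a partner, 25 had a partner called in the same direction. RPN1-204, of an oligosaccharyltransferase subunit, was lower by 1.17, ALDH1A2-221, of a retinoic acid synthesis enzyme, by 0.84, CA2-204 by 0.77, FERMT2-211, of the integrin activator kindlin-2, by 0.76, EEF1A2-206 by 0.75 and PYGL-203 by 0.70. ALDH1A2-221 held 15.7 and 15.7 CPM in shControl and 8.46 and 9.05 CPM in shZNF598, and OS9-210, of a lectin of ER quality control, 17.9 and 19.3 against 12.9 and 12.7 CPM. Those higher were ANXA2-222 (0.45, adjusted p = 0.0487), CCND2-203 (0.91, adjusted p = 0.0291) and 3 transcripts of the snoRNA host gene SNHG1, between 0.44 and 0.45. SNHG1-209 held 18.3 and 18.4 CPM in shControl and 25.9 and 24.2 CPM in shZNF598.

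The decay slope was lower in shZNF598 for 11 transcripts of 7 genes (0.0834%), against 0.113% over all types, and higher for 0. At an unadjusted p under 0.05 there were 733, and DESeq2 called 78 lower and 3 higher. The count of 11 dropped to 3 with total counts, 3 without a filter on low counts, 1 over 0 to 6 h and 4 without the 0 h libraries. RPN1-204 had the largest difference, at -0.24 per hour (adjusted p = 6.18e-08). Its levels in shControl were 13.7 and 15.3 CPM at 0 h, 15.3 and 15.6 at 2 h, 20.3 and 21.3 at 4 h, 23.5 and 25.6 at 6 h, and 33.6 and 35.4 at 10 h. In shZNF598 they were 6.14 and 6.71, 5.18 and 5.67, 4.17 and 4.58, 3.69 and 3.59, and 2.65 and 3.59 CPM. The 2 groups did not overlap at any time, and the partner differed by -0.26 per hour (adjusted p = 4.72e-09).

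RTN3-212, of an ER-shaping reticulon, differed by -0.22 per hour (adjusted p = 0.00715), going from 2.33 and 3.31 to 3.67 and 4.24 CPM in shControl and from 1.81 and 1.65 to 0.650 and 0.549 CPM in shZNF598. MDH1-211, an intron-led transcript of cytosolic malate dehydrogenase, differed by -0.13 (adjusted p = 0.00344). It rose from 2.92 and 3.09 to 13.7 and 13.3 CPM in shControl, but from 3.48 and 2.82 to 6.66 and 5.26 CPM in shZNF598. The partners of these genes differed by -0.21 and -0.10, also called. The others were MDH1-210 and MDH1-214, 3 transcripts of the cytoskeletal GTPase SEPTIN2, DDX46-203 of a splicing helicase, PSMD10-207 of a proteasome assembly chaperone and ATP6AP1-209 of a proton pump subunit, between -0.11 and -0.090. In 8 of the 11 the partner was called as well. Transcripts of 1 gene can share reads, so the 3 calls of MDH1 or of SEPTIN2 are not independent.

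**Figure D5:**
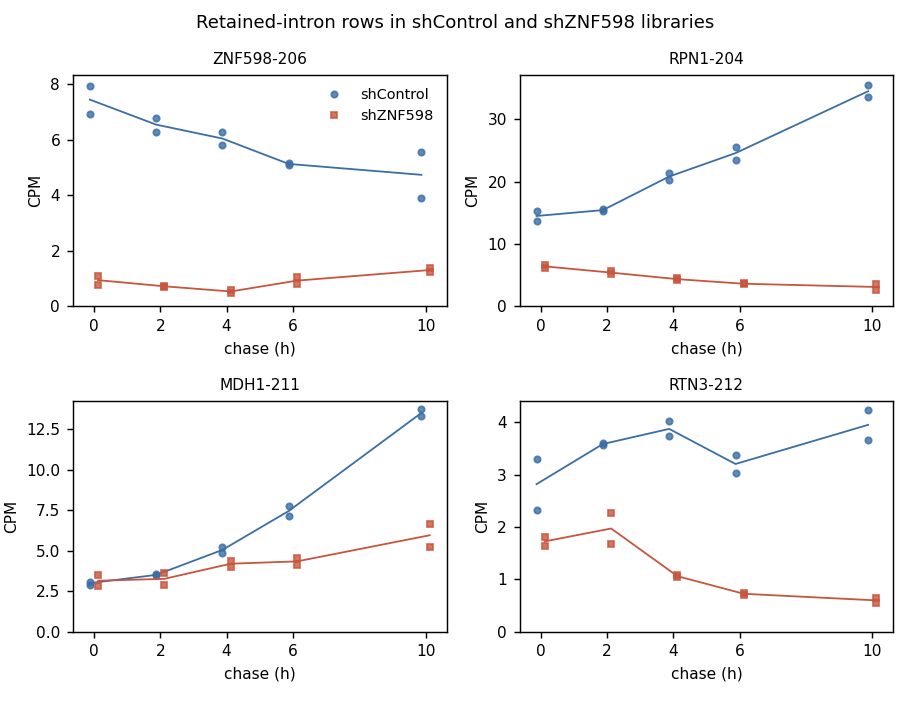
CPM against hours of chase for ZNF598-206, RPN1-204, MDH1-211 and RTN3-212 in shControl and shZNF598, with 1 point per library and lines through the means of 2. ZNF598-206 and RPN1-204 are separated at every time, and the courses of MDH1-211 separate during the chase, with 13.7 and 13.3 against 6.66 and 5.26 CPM at 10 h.

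Relative to the partner, the knockdown left almost no called difference. Reads in shared exons count for both transcripts and pull the ratio toward a constant, so a difference in the intron-holding form alone could be missed. The slope of the log2 ratio was higher in shZNF598 for 1 of 12974 transcripts, against 0.00160% over all types, and lower for 0 (737 at an unadjusted p under 0.05). It was EZH1-206, of a histone methyltransferase, at 0.057 per hour, whose level went from 3.58 and 3.26 CPM at 0 h to 2.30 and 2.25 CPM at 10 h in shControl and from 2.86 and 3.05 to 2.81 and 2.64 CPM in shZNF598. With another choice of partner that value turned to -0.014. The ratio at 0 h was called in 0 retained-intron transcripts, against 0.00320% over all types, with 914 at an unadjusted p under 0.05 in limma, the tool used. In the intron-led class the library medians of the ratio at 2 h, against 0 h, were -0.128 and -0.131 in shControl and -0.125 and -0.136 in shZNF598, and these ranges overlapped.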

How the data were processed

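BrU-labelled RNA of HEK293T cells was sequenced in 22 libraries, of which the 20 of 0 to 10 h were used. Per the study's methods, the authors trimmed single-end reads with fastp, removed reads of noncoding RNAs, mapped the rest with STAR 2.7.0a (CASAVA 1.8 and hg38 are also named in the submitters' processing notes) to 1 locus each, and deposited raw read counts per transcript from featureCounts. The deposited tables also hold each transcript's length in codons, as other values. How reads in bases common to several isoforms were assigned is not given in the sources used here, and was read from the counts. The spike-ins were not used here, so changes are relative to the bulk of each library.

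Transcript types came from a later GENCODE release than the one the authors used. Identifiers matched with version for 92.2% of transcripts and without it for 98.4%. The unmatched held 2.22% of counts. Of the 13193 retained-intron transcripts, 12551 matched with version and 642 without, and types that changed between releases are a limit. All 79513 transcripts that averaged 1 CPM or more were fitted together with edgeR 4.0.16 (TMM factors, glmQLFit and glmQLFTest; the cutoff used CPM without these factors, the printed CPM have them), with 1 intercept and 1 slope over hours per shRNA, or 1 mean per group for 0 h differences, early (2 h minus 0 h) and late (10 h minus 2 h) changes, averaged over the shRNAs. Log2 ratios of CPM (prior count 2) to the coding partner were fitted with limma 3.58.1 (eBayes with trend) over all 62483 pairs. P-values were adjusted by Benjamini-Hochberg over all transcripts or pairs of a test, two-sided, and called below 0.05. The early and late tests of the ratio, and the class-wise, bin-wise and list-wise counts under other settings, were added after the data had been seen. The members and gene lists were chosen with earlier results of these data known, and the lists and rules support no result by themselves. DESeq2 1.42.0, other scalings and filters, and leaving out each library were the alternatives. Scripts were tested on simulated counts. R 4.3.3 and Python 3.11.15 were used.

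Named genes were ZNF598, up to 6 genes per test and direction with the largest change among transcripts of at least 5 CPM that were called and went the same way in both replicate numbers (all members where fewer than 6 had 5 CPM), the 6 intron-led transcripts with the highest CPM per kilobase, and 3 genes per list. The other transcripts called between shRNAs, OS9 among them, were named after their values were seen. Intron sequences were read from the hg38 genome at the annotated ends of introns of the coding partner. Depth was 52352359 to 96963584 counts per library.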

Additional observations from a re-analysis of the deposited data

Results flagged for a closer look

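The effect of the chase differed between shControl and shZNF598 in 11 retained-intron transcripts by the test of the difference in decay slope (edgeR, adjusted over all 79513 transcripts). The difference, shZNF598 minus shControl in log2 units per hour, was -0.240 for RPN1 ENST00000481168.1 and -0.220 for RTN3 ENST00000543123.1. For MDH1 it was -0.132 in ENST00000484538.1, -0.102 in ENST00000472098.5 and -0.101 in ENST00000495083.1. For SEPTIN2 it was -0.107 in ENST00000482304.5, -0.0978 in ENST00000475474.5 and -0.0993 in ENST00000473479.5. It was -0.113 for DDX46 ENST00000503946.1, -0.0969 for PSMD10 ENST00000553388.1 and -0.0901 for ATP6AP1 ENST00000491569.5. The slope of the log2 ratio to the coding partner differed between the shRNAs for EZH1 ENST00000585912.5 alone, by 0.0572 per hour. In 8 of the 11 slope differences the coding partner, which shares reads with the transcript, was called in the same direction. The count of 11 ranged from 2 to 15 when single libraries were left out.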

How the results depend on the processing

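The called counts of the decay slope, the late change and the late change of the ratio stayed within 1.5 times under the filters, the tools and the leaving out of each library that were run, except as follows. With total counts, slopes called higher and lower were 3193 and 7487, and late changes 3177 and 7892. Slope differences called lower were 3 with total counts, 3 without a filter, 1 over 0-6 h, 4 without the 0 h libraries and 78 by DESeq2, which called 3 higher. Differences at 0 h called higher were 2 with RLE factors, 1 with total counts, 29 without a filter and 19 by DESeq2, and those called lower 52 without a filter. Early changes called higher were 977 without a filter, 49 in shControl alone and 92 in shZNF598 alone. Those called lower were 288 and 326 in the shRNAs alone, and 42 and 38 in the intron-led class. Of the ratio slopes, 632 were called higher over 0-6 h. In the intron-led class 18 were higher over 0-6 h, and 140 higher and 46 lower without 0 h. With the partner picked per kilobase, early ratio changes were called lower in 163 and higher in 4.

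The single difference in ratio slope was lost (0 called) with the replicate block, over 0-6 h, without 0 h and with the partner picked per kilobase, where EZH1 turned to -0.0141. SERPINB6, RPL37A and DCTN5 turned to -0.0131, -0.0198 and 0.223 with that partner. Libraries of the same replicate number had deviations that correlated at 0.119, 0.350 and 0.298 at 2, 4 and 6 h but at -0.00483 and -0.228 at 0 and 10 h, so the numbers were not treated as pairs at every time. The replicate block changed no other count by over 1.5 times. It gave 251 early ratio losses in place of 282.

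The median decay slope was 0.00854 without overlapped transcripts, -0.0120 with 1 transcript per gene, 0.0285 over 0-6 h, 0.0230 by DESeq2, 0.0228 with RLE factors, -0.0540 with total counts and 0.00825 without 0 h. The median ratio slope was -0.000287 with matched versions, -0.000207 without overlapped transcripts, 0.000218 with 1 transcript per gene, -0.00324 over 0-6 h, -0.000778 with the partner per kilobase, -0.000331 with a prior count of 0.5 and 0.00176 without 0 h.

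Leaving out 1 library at a time, counts ranged from 2 to 15 for slope differences called lower, 0 to 139 and 6 to 87 for 0 h differences called higher and lower, 138 to 926 and 544 to 1506 for early changes, 66 to 111 for early losses of intron-led transcripts, 7 to 23 and 139 to 271 for early ratio changes called higher and lower, 37 to 69 for those of intron-led transcripts called lower, 0 to 3 for the difference in ratio slope, and 0 to 1 and 0 to 2 for the ratio at 0 h. The lowest count of early ratio losses, 139, came without the second shControl library of 2 h. The median slope ranged from 0.0112 to 0.0149 and the median ratio slope from -0.000700 to 0.000105. With a library left out, its lone partner is assumed to vary like the other groups. Of 2935 alternative values for 117 named tests, 2540 kept direction and call, 391 lost the call and 4 turned. The cause of these shifts was not tested. Whether depth limits the calls of transcripts near 1 CPM was not tested.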

Other observations

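Retained-intron transcripts whose exons overlap a small RNA gene on either strand, such as a snoRNA or a microRNA precursor, numbered 224 from 122 genes. Between 0 and 2 h, 54 of them (24.1%) fell and 9 (4.02%) rose, against 9.00% and 3.82% of all transcripts. Between 2 and 10 h 157 (70.1%) rose and 43 (19.2%) fell, against 36.4% and 45.4%. The median late change was 0.77 on the log2 scale, against 0.11 for all 13193. Their coding partners, counted once per transcript, had a median late change of 0.63. The median slope was 0.066 per hour, beside 0.070 for these partners. The decay slope was called above 0 in 145 and below 0 in 50, which is 64.7% and 22.3% against 36.3% and 44.8%. Their ratio to the coding partner fell early in 16 of 191 (8.38%) and rose in 0, against 0.703% and 0.314% of all pairs, and late it rose in 54 (28.3%) and fell in 27 (14.1%), against 14.8% and 8.70%. Without the second shControl library of 0 h the early level fell in 46 and rose in 4. In the intron-led class, 14 transcripts of 9 genes overlapped such a gene, of which 10 fell early and 12 rose late. The part of the small RNA in these values was not tested.

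In the 10 intron-led transcripts of 7 genes that shared at most 5% of their bases with coding exons, 9 fell between 0 and 2 h. Between 2 and 10 h 7 rose and 2 fell. Over all transcripts 9.00% fell early, and 36.4% rose and 45.4% fell late. Median changes were -0.47 and 1.29, beside -0.36 and -0.38 for the coding partners, counted once per transcript. Ratios to the partner fell early in 2 and rose late in 7 of these 10, against 0.703% and 14.8% of all pairs. The median early change of the ratio was -0.220. It was -0.215 without the first shControl library of 0 h and -0.225 without the second. Their median level was 134% of the partner per kilobase. Transcripts that overlapped an exon of another gene on the same strand numbered 1489, of which 185 (12.4%) fell early and 35 (2.35%) rose, or 144 and 21 without the second shControl library of 0 h and 275 and 63 without the first. Transcripts that overlapped no exon of another gene numbered 9394, of which 552 (5.88%) fell and 304 (3.24%) rose, or 924 and 686 without the first, and in the 419 intron-led ones among them 57 ratios to the partner fell early and 1 rose, or 33 and 0 without the first.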
